A study of Mus musculus with 9 samples.

Results

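The liver transcriptome of mice on a fasting-mimicking diet (FMD) was compared with that of mice fed standard diet ad libitum (FED), in the 3 FMD and 3 FED libraries among the 9 of the series. All mice were wild type (wt) of the C57BL/6 J strain, and each library was made from the liver of 1 mouse. FMD mice received a low-calorie, low-protein diet richer in fat than the standard chow on days 2 to 4, FED mice ate the standard diet throughout, and all were sacrificed on day 5. The other 3 libraries came from intermittently fasted (IF) mice, which were without food for 24 h on 2 occasions, and they serve here only for a direct comparison of the diets. Sex, age and processing batch were not given in the sources used here. The genes compared were the 4667 with a mean of at least 1 deposited TPM, the share of a gene among all transcripts, over these 6 libraries, out of 5608 in the table, which holds part of the transcriptome. TPM values are normalised for transcript length, so levels of different genes can be set side by side.

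In the fed state, insulin drives hepatic fatty acid and cholesterol synthesis, largely through the SREBP transcription factors. When food is scarce, falling insulin and rising glucagon and glucocorticoids turn the liver to oxidation of fatty acids arriving from adipose tissue, to ketone body production and to gluconeogenesis from glycerol, lactate and amino acids. The nuclear receptor PPARα, activated by fatty acids, induces many of the oxidation genes, and protein restriction engages a separate amino acid response.

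The listed genes summed to between 26.3% and 29.3% of all TPM in the FED libraries and to between 34.9% and 43.0% in the FMD libraries, and the median gene was higher in FMD by 0.48 on the log2 scale. Each library was therefore divided by the median of its gene-wise ratios to the geometric mean library, which gave factors of 0.814 to 0.844 for FED and 1.09 to 1.43 for FMD. Values below are scaled TPM unless stated otherwise, and a log2 fold change is the FMD minus FED difference on the log2(scaled TPM + 1) scale, in a limma fit with Benjamini-Hochberg adjustment over all 4667 genes. A gene counted as changed at an adjusted p under 0.05 and a fold over 1.5. By this rule 430 genes changed, 9.21% of those tested, of which 202 (4.33%) rose and 228 (4.89%) fell, and 181 of the 430 changed over 2-fold. The FED and FMD libraries did not overlap at any of the 430 changed genes, while over all genes tested they did not overlap at 36.7% (18.6% with FMD higher, 18.1% with FMD lower). Without scaling, 1601 genes (34.3%) were called higher and 73 (1.56%) lower, and all 202 of the scaled rises but only 73 of the 228 scaled falls were among them. The counts of list members below, with or without scaling, are to be read against these shares of all genes. The count fell most when a FED library was left out, to 173 without FED 1, 180 without FED 3 and 251 without FED 2. The fit gives each gene 1 variance for both diets, while the SD was larger in FMD for 74.2% of the genes. A call lost without a FED library therefore need not mean that this library differed from the other FED livers. Of the 430 genes, 146 were called in each of the 6 fits that left out 1 library, and these are the firmest of the changes below.

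The most abundant transcripts in the table were those of proteins that hepatocytes secrete. Apolipoprotein E, Apoe, stood at 22224, 20676 and 21789.7 in FED 1, 2 and 3 and at 16211, 23011 and 24862 in FMD 1, 2 and 4, with a log2 fold change of -0.037 (adjusted p = 0.931) that was 0.52 without scaling. Apoc1 was measured at 15675, 14184 and 14268 in FED and 7020.3, 8909.7 and 11467 in FMD (log2 fold change -0.71, adjusted p = 0.0665), and the haem carrier hemopexin, Hpx, at 9199, 4057 and 6594 in FED and 3706, 2841 and 2939 in FMD (log2 fold change -0.997, adjusted p = 0.0651). None of the 3 passed the test. The 14 hepatocyte markers of the list, Alb, Ttr and Hnf4a among them, and all neutrophil and erythroid markers were not analysed here, and few markers of other liver cells were tested. Of 16 Kupffer cell markers 2 were tested, and their summed level was 32.0 to 41.3 in FED and 9.93 to 57.3 in FMD. Of 15 stellate cell markers 5 were tested (summed level 158 to 190 in FED, 162 to 238 in FMD), of 16 endothelial markers 1 (Oit3, 8.09 to 10.99 and 8.12 to 13.96), of 9 cholangiocyte markers 1 (Krt19, 0.900 to 2.16 and 0.879 to 3.56), of 17 lymphocyte markers 1 (Ccl5, 0.787 to 3.10 and 1.57 to 10.5) and of 9 adipocyte markers 2 (11.8 to 16.7 and 17.7 to 61.5). The only marker among these that changed was the macrophage perforin Mpeg1. It was measured at 32.2, 19.4 and 31.5 in FED and 12.6, 10.5 and 4.66 in FMD and fell by 1.54 on the log2 scale (adjusted p = 0.0249, and 0.116 without FED 1), a call also lost without scaling (adjusted p = 0.0502). In whole liver, fewer cells of a type and less RNA per cell cannot be told apart.

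**Figure D1:**
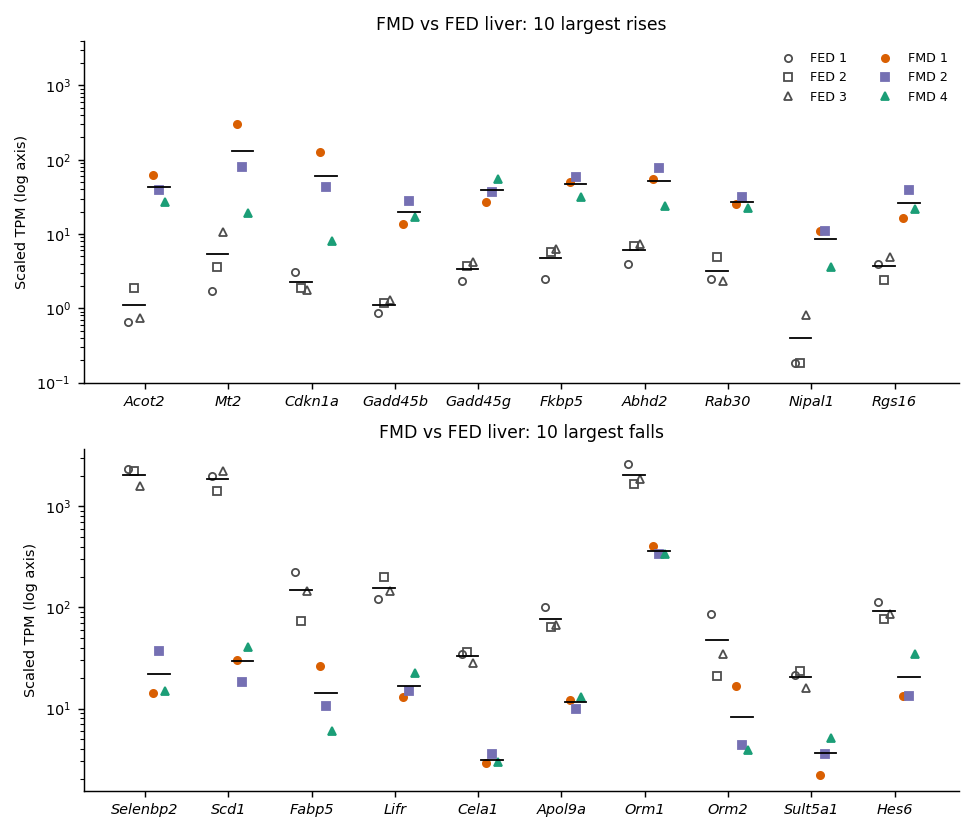
Scaled TPM (log axis) of the 10 largest rises and 10 largest falls in FMD vs FED liver, chosen among changed genes whose mean deposited TPM, before scaling, reached 5. Each symbol is 1 mouse liver and each bar the mean of 3. Selenbp2 and Scd1 lie far above all FMD libraries in every FED library, and Mt2 and Cdkn1a vary widely among the FMD libraries.

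The largest differences were falls. Selenbp2, which encodes a selenium-binding protein (NCBI gene 20342), stood at 2324, 2228 and 1573 in FED 1, 2 and 3 and at 14.2, 36.9 and 14.9 in FMD 1, 2 and 4, a log2 fold change of -6.59 ± 0.35 (SE, n = 3 and 3, adjusted p = 0.000137). Scd1, the desaturase that makes monounsaturated fatty acids (NCBI gene 20249), was measured at 1971, 1421 and 2249 in FED and 29.9, 18.4 and 40.7 in FMD, with a log2 fold change of -5.98 ± 0.29 (adjusted p = 0.000106). For both genes every FED liver exceeded every FMD liver by a wide margin. The fatty acid binding protein Fabp5 fell by 3.38 ± 0.53, from 223, 74.1 and 146 in FED to 26.3, 10.5 and 6.03 in FMD. Lifr, the receptor of leukaemia inhibitory factor, dropped from 122, 199.96 and 144 to 12.97, 14.7 and 22.4 (log2 fold change -3.15 ± 0.24, adjusted p = 0.000525). The elastase Cela1 had the smallest adjusted p of these genes, 7.27e-05, at 34.5, 36.5 and 28.2 in FED and 2.91, 3.53 and 2.96 in FMD. Apol9a fell by 2.61, the sulphotransferase Sult5a1 fell by 2.25, and the transcriptional regulator Hes6 fell by 2.23, although Hes6 was not called without FED 1 (adjusted p = 0.0527). Selenbp2, Apol9a and some genes below have near-identical relatives, and how the authors assigned shared reads is not stated, so the split between such relatives is uncertain.

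Among the largest rises, Acot2, a mitochondrial acyl-CoA thioesterase that frees fatty acids from coenzyme A (NCBI gene 171210), went from 0.651, 1.90 and 0.734 in FED to 61.7, 39.6 and 27.0 in FMD, a log2 fold change of 4.36 ± 0.32 (adjusted p = 0.000525). Every FMD library was above 25 and every FED library below 2. Abhd2, a lipid hydrolase, rose by 2.80 from 4.01, 6.79 and 7.32 to 55.7, 76.3 and 24.0, and the Golgi GTPase Rab30 rose by 2.76 from 2.45, 4.87 and 2.31 to 25.7, 31.8 and 22.6. Nipal1, a membrane protein of a magnesium transporter family, was near the floor in FED, at 0.184, 0.182 and 0.817, and at 11.1, 10.97 and 3.56 in FMD. All 4 were called in each of the 6 fits with a library left out.

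Of 12 mitochondrial fatty acid oxidation genes tested, 7 rose, none fell and 5 did not pass, with a median log2 fold change of 0.83 against 0.01 over all genes tested. Carnitine acetyltransferase, Crat, which moves acetyl groups between coenzyme A and carnitine, went from 7.57, 8.15 and 8.56 in FED to 36.7, 51.7 and 46.0 in FMD (log2 fold change 2.32 ± 0.14, adjusted p = 0.000278). Cpt1a, the gatekeeper that loads long-chain fatty acids onto carnitine for entry into mitochondria, stood at 81.4, 117 and 109.6 in FED and 258, 425 and 236 in FMD (log2 fold change 1.53 ± 0.24, adjusted p = 0.00843). Acadl, the long-chain acyl-CoA dehydrogenase, rose by 1.31 ± 0.13 (adjusted p = 0.00162). For these 3 genes every FMD library exceeded every FED library by a wide margin, and the call held with any 1 library left out. Hadha of the trifunctional protein rose by 0.92, the isomerase Eci2 by 1.01, the dienoyl-CoA reductase Decr1 by 0.85 and Cpt2, which releases fatty acids inside mitochondria, by 0.68. These 4 were less firm, since all lost the call without FED 1 (adjusted p = 0.0527 for Hadha, 0.113 for Eci2, 0.0981 for Decr1 and 0.128 for Cpt2), and Cpt2 in 4 other fits too. The electron acceptor Etfa, the thiolase Acaa2 and the hydratase Echs1 had log2 fold changes of 0.008, 0.034 and -0.24 and did not pass the test.

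FMD 2 had the highest value of the 3 FMD libraries for 11 of the 12 mitochondrial genes, and FMD 1 the lowest for 11. The median difference from the FED mean was 0.49 in FMD 1, 1.20 in FMD 2 and 0.75 in FMD 4. Without FMD 1, when 5.21% of all genes were called higher and 4.95% lower, 9 of the 12 were called higher and the median was 0.998. Without scaling, when 34.3% of all genes were called higher, 10 were called higher at a median of 1.38. The carnitine transporter Slc22a5, which brings carnitine into the cell, rose by 2.40 ± 0.17 (adjusted p = 0.000525), from 7.29, 10.1 and 7.67 to 39.1, 57.4 and 48.6.

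Without scaling 9 of 12 peroxisomal genes were called higher, beside 34.3% of all genes. On scaled values none rose and 1 fell in the limma fit, while 3 stood higher and 1 lower at an unadjusted p under 0.05. The exception was Pecr, an enoyl-CoA reductase of peroxisomes, at 335, 309 and 282 in FED and 85.9, 165 and 191 in FMD (log2 fold change -1.14, adjusted p = 0.0359), a call that was lost in 4 of the 6 fits with a library left out (highest adjusted p = 0.14, without FED 1). Besides Acot2, the fatty aldehyde dehydrogenase Aldh3a2 rose by 1.49 and the fatty acid transporter Slc27a1 by 1.90 among 9 thioesterase, synthetase and related genes, and both calls were lost without FED 1 (adjusted p = 0.078 and 0.123). Slc27a1 was uneven, at 6.73, 28.5 and 8.38 in FMD 1, 2 and 4 against 2.30, 2.50 and 2.58 in FED.

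Among 5 ketone body genes tested 1 rose and 1 fell. Bdh2, a cytosolic dehydrogenase, fell from 21.8, 21.0 and 20.8 to 6.85, 6.57 and 9.09 (log2 fold change -1.40 ± 0.13, adjusted p = 0.00109). The monocarboxylate transporter Slc16a1 stood at a log2 difference of 0.48 (adjusted p = 0.0571).

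Of 15 lipid droplet genes tested, 7 rose, 1, Fabp5, fell and 7 did not pass, with a median log2 fold change of 0.85. The droplet coat protein perilipin 2, Plin2, was the most abundant of the risers, at 288, 374 and 350.0 in FED and 1543, 949 and 764 in FMD (log2 fold change 1.63 ± 0.25, adjusted p = 0.00832, and 0.0527 without FED 1). Plin4 went from 0.344, 0.620 and 0.758 to 4.19, 5.50 and 7.51 (log2 fold change 2.08 ± 0.19). Pnpla2, adipose triglyceride lipase, rose by 1.58 ± 0.24 from 37.2, 39.1 and 39.0 to 100.4, 179 and 89.4, and Hilpda, an inhibitor of that lipase, rose by 1.95, with 27.4, 14.8 and 5.25 in FMD 1, 2 and 4 against 2.10, 2.93 and 2.98 in FED. Hilpda was called in 2 of the 6 fits with a library left out (adjusted p = 0.141 without FED 1). Angptl4, a secreted inhibitor of lipoprotein lipase, rose by 1.32 (adjusted p = 0.00843), the acyltransferase Agpat3 by 0.85 and the droplet-forming Fitm2 by 1.16. Without FED 1 Angptl4 and Fitm2 were not called (adjusted p = 0.0514 and 0.126), nor was Agpat3 without FED 3 (adjusted p = 0.0598). Fabp4, a fatty acid binding protein best known from adipocytes, stood at 9.75, 7.06 and 10.7 in FED and 56.1, 24.5 and 10.6 in FMD and did not pass (adjusted p = 0.118).

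**Figure D2:**
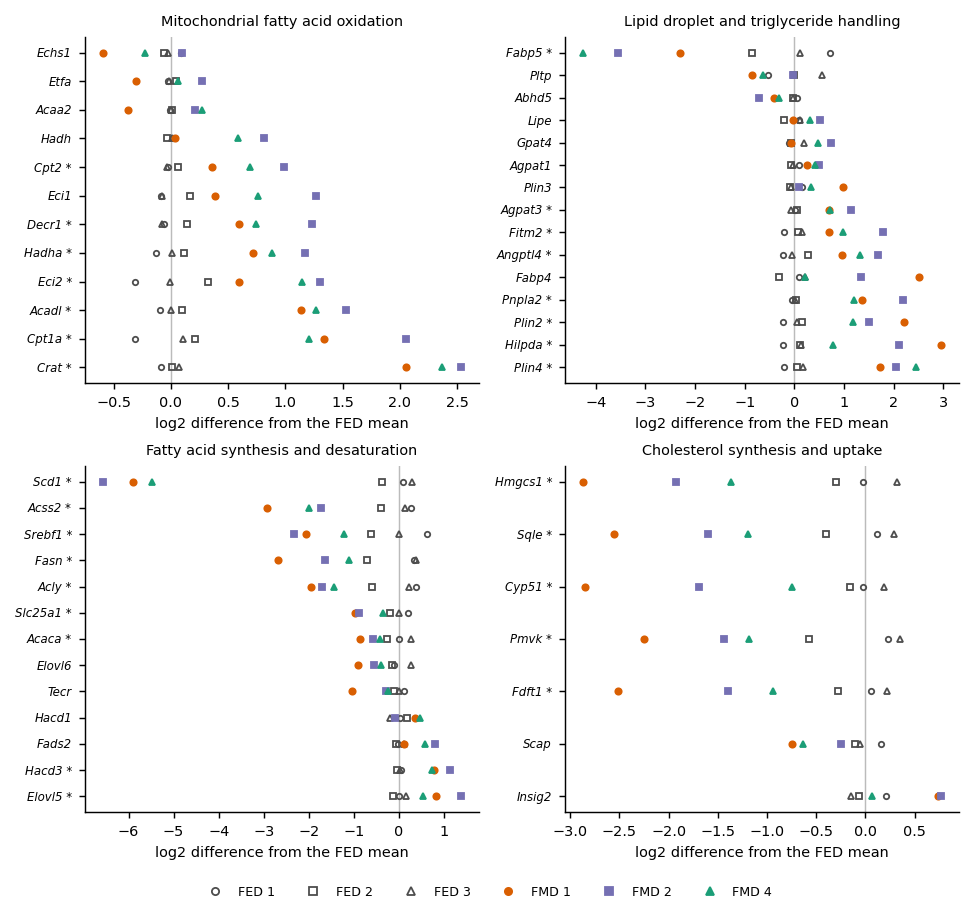
Difference of each library from the FED mean, on the log2(scaled TPM + 1) scale, for the tested members of 4 lipid gene lists, with 1 cholesterol gene not shown. Open grey symbols are FED livers, filled symbols FMD livers, and an asterisk marks a changed gene. Members of the oxidation and lipid droplet lists lie mostly to the right, and Scd1, Acss2 and 5 cholesterol genes lie left of every FED library, with FMD 1 the lowest FMD liver at 6 of the 7 cholesterol genes shown.

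Of 13 fatty acid synthesis genes tested, 7 fell and 2 rose, and the median log2 fold change was -0.63 (-0.13 without scaling, when 5 were called lower and 4 higher). Acss2, which activates acetate, went from 209, 132 and 192 in FED to 22.0, 51.6 and 42.6 in FMD (log2 fold change -2.23 ± 0.31, adjusted p = 0.00554). Acly, the citrate lyase, fell by 1.71 ± 0.26, from 146, 73.9 and 132 to 28.2, 33.5 and 40.8. Fatty acid synthase, Fasn, stood at 68.9, 33.1 and 71.1 in FED and 7.64, 16.7 and 24.8 in FMD, with FED 2 and FMD 4 the nearest of the libraries, and with a log2 difference of -1.81 ± 0.43 (adjusted p = 0.0325) and a call in 3 of the 6 fits (adjusted p = 0.135 without FED 1). Srebf1, the transcription factor that drives this pathway, fell by 1.87 (adjusted p = 0.0167, and 0.0723 without FED 1). The carboxylase Acaca and the citrate carrier Slc25a1 fell by 0.63 and 0.74, each called in 1 of the 6 fits (highest adjusted p = 0.164 without FED 3 and 0.169 without FED 1) and not without scaling. Elovl5 and Hacd3, which lengthen fatty acids, rose by 0.91 and 0.88 (adjusted p = 0.0319, lost without FED 1 at 0.122, and 0.00749), and Elovl6 stood at a log2 difference of -0.62 (adjusted p = 0.0515).

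Cholesterol synthesis showed the lowest list median. Of 8 genes tested 5 fell and none rose, with a median log2 fold change of -1.62, and the same 5 were called lower without scaling (median -1.08). Hmgcs1, the synthase that supplies HMG-CoA, stood at 197, 163 and 251 in FED 1, 2 and 3 and at 26.5, 52.2 and 77.3 in FMD 1, 2 and 4 (log2 fold change -2.05 ± 0.35, adjusted p = 0.0118). Squalene epoxidase, Sqle, went from 59.1, 41.0 and 66.9 to 8.47, 17.4 and 23.3 (log2 fold change -1.78 ± 0.34). Cyp51, Pmvk and Fdft1 fell by 1.76, 1.62 and 1.62. All 5 were lowest in FMD 1 and highest in FMD 4, and the list medians relative to FED were -2.38 in FMD 1, -1.42 in FMD 2 and -0.85 in FMD 4. None of the 5 was called in all 6 fits with a library left out, and the highest adjusted p ranged from 0.0607 for Hmgcs1 to 0.142 for Cyp51, both without FED 1. Insig2, which retains SREBP in the endoplasmic reticulum, stood at a log2 difference of 0.53 (adjusted p = 0.14). Sterol response genes carry sterol regulatory elements. The RefSeq promoter window of Hmgcs1 (250 bases before to 50 after the start, GRCm38.p6, chr13:119690101-119690400, plus strand) is shown because it holds the letters TCACNCCAC, searched on both strands and present in 1.24% of all 32851 promoter windows, with the match at bases 114 to 122 in capitals. Of the 5 genes that fell, 3 had a window and 1 of these had a match.
Hmgcs1: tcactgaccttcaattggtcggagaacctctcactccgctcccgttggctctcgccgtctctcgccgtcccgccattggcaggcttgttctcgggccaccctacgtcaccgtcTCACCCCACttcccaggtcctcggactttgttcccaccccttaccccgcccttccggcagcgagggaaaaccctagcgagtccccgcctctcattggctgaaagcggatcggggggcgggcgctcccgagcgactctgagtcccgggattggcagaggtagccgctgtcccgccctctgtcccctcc

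Of 9 gluconeogenic genes tested 3 rose and none fell, with a median log2 fold change of 0.55. Glycerol kinase, Gk, which admits glycerol to the pathway, stood at 23.4, 29.4 and 29.1 in FED and 65.6, 81.9 and 64.7 in FMD, a log2 fold change of 1.34 ± 0.14 (adjusted p = 0.00176) that held in every fit with a library left out. The glucose-6-phosphate transporter Slc37a4 rose by 0.95 (adjusted p = 0.0352) and the alanine aminotransferase Gpt2 by 1.42 (adjusted p = 0.0421), with calls in 2 and 1 of the 6 fits (highest adjusted p = 0.122 without FED 3 and 0.134 without FED 1). Gpt2 was uneven, at 351, 397 and 139 in FMD 1, 2 and 4 against 106, 87.4 and 108 in FED. Pyruvate carboxylase, Pcx, was measured at 174, 151 and 158 in FED and 161, 351 and 232 in FMD, and did not pass (log2 fold change 0.55, adjusted p = 0.197, but 0.024 without FMD 1). The aspartate aminotransferase Got1 spanned 467, 1079 and 235 in FMD 1, 2 and 4 (adjusted p = 0.141). Among 23 glycolytic and glycogen genes, the aldolase Aldoa and the lactate dehydrogenase Ldha rose by 1.01 and 0.76 and none fell, at a list median of 0.00. The changed share of this list was near the 9.21% of all genes tested. Neither the Aldoa nor the Ldha call held in all 6 fits (highest adjusted p = 0.0607 without FED 1 and 0.0804 without FED 3).

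Of 18 genes of amino acid catabolism and the urea cycle, 3 fell and 1 rose. Hibadh of valine breakdown fell by 0.86 (adjusted p = 0.0241), the glutaminase Gls2 by 0.75 (adjusted p = 0.0248) and Gcsh of the glycine cleavage system by 0.59 (adjusted p = 0.0474). The list median was -0.41 but 0.14 without scaling, when none of these 3 was called. The urea cycle enzyme Asl went the other way, from 367, 313 and 358 in FED to 690.2, 1260.5 and 540.0 in FMD (log2 fold change 1.17, adjusted p = 0.0367). None of the 4 was called in more than 3 of the 6 fits, with the highest adjusted p, from 0.108 for Gls2 to 0.159 for Gcsh, without FED 1. The 23 genes of the amino acid response, a program under the factor ATF4, had a median of 0.48, and 9 of them stood higher and none lower at an unadjusted p under 0.05. The median difference from the FED mean was 0.62 in FMD 1, 0.13 in FMD 2 and 0.31 in FMD 4. FMD 1 was the highest of the FMD livers at 16 of the 23. Without FMD 1 the median was 0.34, and 4 were called higher and 1 lower. Without scaling 12 were called higher, beside 34.3% of all genes. In the fit of all 6 libraries Cebpb alone passed, rising by 1.03 from 95.1, 76.6 and 72.1 to 125, 185 and 195 (adjusted p = 0.0154, and 0.0717 without FED 3).

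Few ribosomal and respiratory genes passed the test. In the limma fit none of 81 cytosolic ribosomal protein genes, 43 mitochondrial ribosomal protein genes, 63 translation factor and tRNA synthetase genes or 10 tricarboxylic acid cycle genes was called, with medians of 0.13, -0.14, 0.03 and -0.04, and at an unadjusted p under 0.05 there were 4, 13, 20 and 2. Of 63 respiratory chain and ATP synthase genes 1 fell, Ndufv3 of complex I, by 0.64 (adjusted p = 0.0455, and 0.168 without FED 1), and Ndufv3 was not called without scaling. At an unadjusted p under 0.05, 15 of the 63 stood lower and none higher, and 54 lay below 0. The list median was -0.17 and 0.38 without scaling. Without scaling 54 of the 81 cytosolic ribosomal protein genes were called higher, beside 34.3% of all genes. Their unscaled median was 0.68, and the mitochondrial ribosomal and tricarboxylic acid cycle medians were 0.39 and 0.49, beside 0.48 over all genes.

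**Figure D3:**
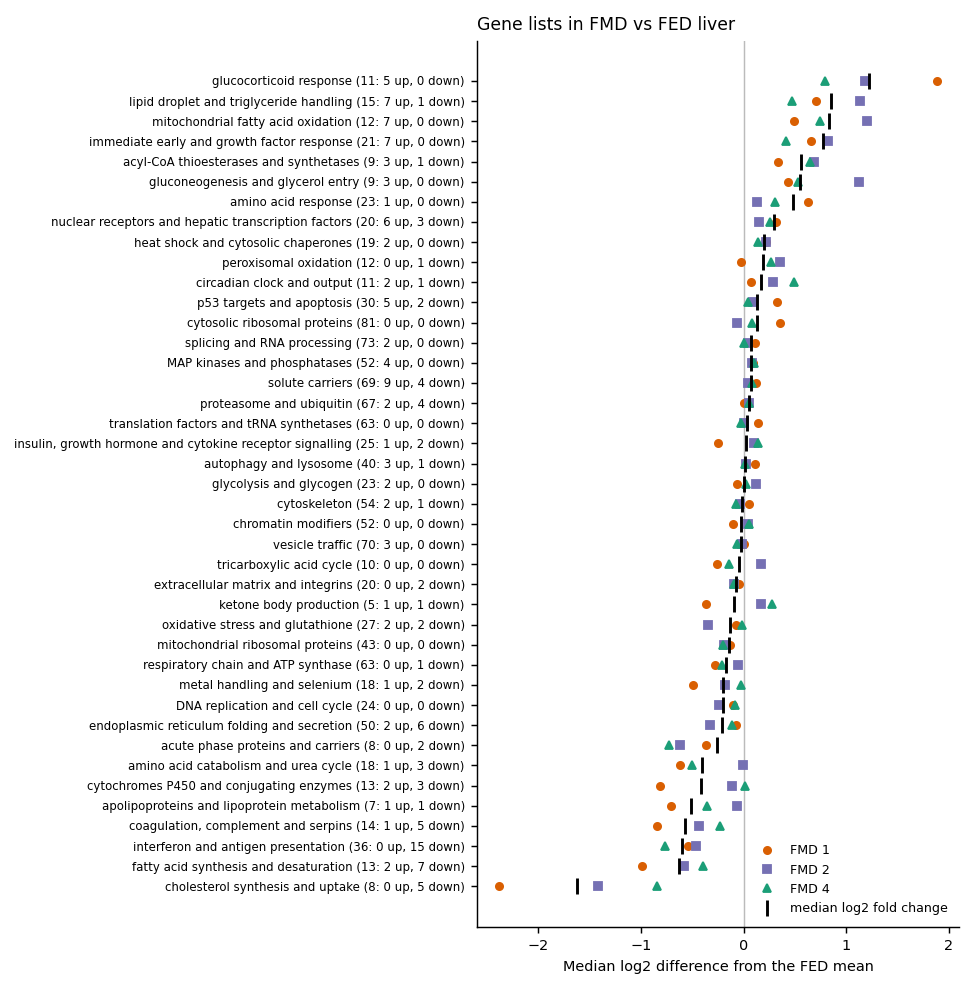
Median log2 difference from the FED mean over the members of each gene list with at least 5 genes tested, in FMD 1, FMD 2 and FMD 4, on scaled values. The black tick is the median log2 fold change of the list, and labels give the number tested and the numbers that rose and fell. Glucocorticoid response genes lie highest and cholesterol synthesis genes lowest, and in both lists FMD 1 lies farthest from 0.

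Genes that respond to glucocorticoids had the highest list median. Of 11 tested 5 rose and none fell, with a median log2 fold change of 1.23. Without FMD 1 the median was 0.86, below the 0.998 of the mitochondrial fatty acid oxidation list, so the rank rested on FMD 1. Fkbp5, a chaperone of the glucocorticoid receptor, went from 2.49, 5.70 and 6.29 in FED to 50.9, 57.8 and 31.0 in FMD (log2 fold change 3.05 ± 0.32, adjusted p = 0.00175). Per1, a clock gene that glucocorticoids also induce, rose by 2.18 ± 0.23, from 3.12, 1.21 and 2.23 to 10.4, 14.3 and 14.7. The metallothioneins bind zinc and copper. Mt2, with the widest FMD range of the genes whose mean deposited TPM reached 10, stood at 1.68, 3.63 and 10.7 in FED 1, 2 and 3 and at 298, 79.2 and 19.2 in FMD 1, 2 and 4, a log2 difference of 3.90 ± 0.92 (adjusted p = 0.0333), and was called in 2 of the 6 fits, with an adjusted p of 0.138 without FED 1. Mt1 was measured at 19.2, 20.8 and 54.3 in FED and 566, 192 and 62.5 in FMD and did not pass (log2 fold change 2.72, adjusted p = 0.0522). For both genes FMD 1 was highest and FMD 4 lay nearest to the FED livers. Ddit4 and Sgk1, which glucocorticoids also induce, showed the same order among FMD livers, at 52.7, 18.7 and 4.33 and 62.4, 20.9 and 13.9, and neither passed (adjusted p = 0.165 and 0.156). Tsc22d3, another target, was measured at 90.0, 28.6 and 44.3 in FED and 42.6, 65.5 and 52.6 in FMD (adjusted p = 0.873). The search for metal response elements used TGCNCNC, a looser pattern than their core TGCRCNC, where R is A or G. In the window below TGCTCTC and, on the minus strand, GGGAGCA have T at that place, so they match the pattern but not the core. The promoter window of Mt2 (GRCm38.p6, chr8:94172368-94172667, plus strand, RefSeq) is shown because it holds 6 matches on both strands, in capitals, while at least 1 match was in 51% of all promoter windows and in 65.4% of those of the genes tested.
Mt2: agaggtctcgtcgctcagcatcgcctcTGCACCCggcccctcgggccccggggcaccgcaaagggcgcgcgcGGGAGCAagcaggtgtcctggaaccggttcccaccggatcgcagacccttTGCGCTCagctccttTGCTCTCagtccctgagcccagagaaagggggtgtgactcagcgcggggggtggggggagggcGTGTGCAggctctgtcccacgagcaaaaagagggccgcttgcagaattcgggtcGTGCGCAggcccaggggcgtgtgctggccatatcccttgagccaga

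Of 21 immediate early and growth factor response genes 7 rose, none fell and 14 did not pass, with a median of 0.78. Maff, a small partner of bZIP factors, went from 1.90, 1.70 and 2.81 to 18.0, 15.6 and 10.9 (log2 fold change 2.32 ± 0.20, adjusted p = 0.000826), and Rgs16, a brake on G protein signals that is also a fasting-responsive and clock-linked gene, from 3.93, 2.38 and 4.84 to 16.5, 39.7 and 21.6 (log2 fold change 2.45 ± 0.32). The proto-oncogene Myc stood at 0.959, 1.14 and 1.54 in FED and 16.6, 5.87 and 4.31 in FMD (log2 fold change 1.97, adjusted p = 0.0186) and the TWEAK receptor gene Tnfrsf12a at 12.95, 9.85 and 11.3 in FED and 151, 43.0 and 31.1 in FMD (log2 fold change 2.29, adjusted p = 0.0263), both highest in FMD 1. Maff and Rgs16 were called in all 6 fits with a library left out, while Myc and Tnfrsf12a were not called without FED 1 (adjusted p = 0.0929 and 0.0987).

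Among 30 p53 target and apoptosis genes, 5 rose and 2 fell, with a median of 0.13. Gadd45b and Gadd45g, growth arrest and DNA damage inducible genes, went from 0.873, 1.17 and 1.29 to 13.7, 27.8 and 17.2 and from 2.30, 3.75 and 4.14 to 26.7, 36.6 and 54.4, with log2 fold changes of 3.23 ± 0.23 and 3.16 ± 0.27. Cdkn1a, the cell cycle inhibitor p21, spanned a wide range in FMD 1, 2 and 4, at 129, 42.9 and 7.96, against 3.05, 1.87 and 1.76 in FED (log2 fold change 3.54 ± 0.82, adjusted p = 0.0302). Cdkn1a was called in 2 of the 6 fits, with an adjusted p of 0.104 without FED 1. The pro-apoptotic Bcl2l11 rose by 1.39 and the ferroptosis suppressor Aifm2 by 1.12, while the kinase Plk2 fell by 0.89 (adjusted p = 0.00637) and was not called without scaling. Bax and Mcl1, on opposite sides of the mitochondrial death decision, had log2 fold changes of 0.16 and -0.17 (adjusted p = 0.787 and 0.338), and the sign turned for Bax without FMD 1 (-0.23) and for Mcl1 without scaling (0.37). Tigar, a p53 target in sugar metabolism, stood at 0.075 (adjusted p = 0.779) and the autophagy regulator Trp53inp1 at 0.59 (adjusted p = 0.215).

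Of 11 clock genes, Per1 and Rgs16 rose and Nr1d1, the repressor REV-ERBα, fell from 71.8, 78.5 and 74.0 to 17.7, 51.3 and 26.2 (log2 fold change -1.34, adjusted p = 0.0356, and 0.124 without FED 1). Per2 stood at a log2 difference of 0.85 (adjusted p = 0.068). Dbp, a clock output factor, was measured at 10.2, 39.7 and 38.3 in FMD 1, 2 and 4 against 17.3, 11.7 and 14.0 in FED (adjusted p = 0.297), so FMD 1 lay below all FED livers and the other two FMD livers above them. The time of day at sacrifice was not given per mouse in the sources used here.

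Among receptors, Lifr and Egfr fell. In a list of 25 genes of insulin, growth hormone and cytokine receptor signalling these were the only falls and Socs3 the only rise. Of all genes tested 4.89% fell and 4.33% rose. Egfr, the epidermal growth factor receptor, stood at 177, 234.3 and 238 in FED and 35.0, 60.8 and 48.8 in FMD, a log2 difference of -2.16 ± 0.21 (adjusted p = 0.00141), called in all 6 fits with a library left out. Socs3, an inhibitor of cytokine signals, rose by 0.88 (adjusted p = 0.0466) and was called in 1 of the 6 (adjusted p = 0.164 without FED 1). Among 69 solute carriers 9 rose and 4 fell, against 32 called higher and none lower without scaling. The unscaled shares of all genes were 34.3% higher and 1.56% lower. The folate carrier Slc19a1 rose by 1.37 (adjusted p = 0.00526), the mitochondrial pyrimidine carrier Slc25a33 by 1.01 (adjusted p = 0.00836) and the glucose transporter Slc2a1 by 0.74 (adjusted p = 0.0302, and 0.111 without FED 2), and the list median was 0.07. Of 20 nuclear receptor and hepatic transcription factor genes, 6 rose and 3 fell. The rises were Cebpb and the Krüppel-like factors Klf3, Klf9, Klf10, Klf13 and Klf16, by 0.81, 0.63, 1.08, 0.98 and 0.89, none of them called in all 6 fits (highest adjusted p from 0.0545 for Klf13 to 0.14 for Klf9, without FED 3 and FED 1). The falls were Nr1d1, Nr6a1 by 0.85 and Nr2f6 by 0.66, and Nr6a1 and Nr2f6 were not called without scaling.

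Secreted plasma proteins were lower in part. Of 8 acute phase genes 2 fell, the orosomucoids Orm1 and Orm2, which bind drugs and lipids in plasma. Orm1 went from 2589, 1665 and 1840.0 in FED to 409, 339.9 and 335 in FMD (log2 fold change -2.47 ± 0.19, adjusted p = 0.000525), with the FMD livers close together. Orm2 was measured at 85.3, 21.1 and 35.0 in FED and 16.7, 4.37 and 3.87 in FMD (log2 fold change -2.40, adjusted p = 0.0395, and 0.135 without FED 1), and its sequence is close to that of Orm1. Haptoglobin, Hp, stood at a log2 difference of -0.35 (adjusted p = 0.459). Of 14 coagulation, complement and serpin genes 5 fell and 1 rose. The complement gene C4b stood at 505, 339 and 453 in FED and 133, 213 and 197 in FMD (log2 fold change -1.26 ± 0.22, adjusted p = 0.0118), and of the same system C1s1 fell by 1.10, C1ra by 0.97 and Masp1 by 0.76. The list median was -0.57 and -0.01 without scaling, when 2 members, C4b among them, were called lower. The serpin Serpina3m rose by 1.20 ± 0.19, from 191, 116 and 168 to 343, 381 and 351 (adjusted p = 0.0079). Masp1 and Serpina3m kept their calls in all 6 fits, while C4b was called in 4 and C1s1 and C1ra in 2 each, with adjusted p of 0.0632, 0.0958 and 0.108 in the weakest fit, without FED 1. The lipoprotein receptor Lrp1 fell by 0.85 (adjusted p = 0.0333, and 0.122 without FED 1), and C1s1, C1ra, Masp1 and Lrp1 were not called without scaling.

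Among 13 cytochrome P450 and conjugation genes 2 rose and 3 fell. Por, the reductase that passes electrons to all microsomal P450 enzymes, went from 91.6, 119 and 123 in FED to 449, 695 and 460.3 in FMD (log2 fold change 2.24 ± 0.20, adjusted p = 0.00105). The carbonyl reductase Cbr1 rose by 1.55 (adjusted p = 0.0101, and 0.0537 without FED 1). Besides Sult5a1, the carboxylesterase Ces2e fell by 1.34 (adjusted p = 0.0132, and 0.0729 without FED 1) and Cyp2f2, a P450 of periportal hepatocytes, from 2125, 1820.2 and 1747 to 538, 823 and 1048 (log2 fold change -1.29, adjusted p = 0.0149, and 0.0776 without FED 1). Hsd3b7, needed to make bile acids from cholesterol, fell from 603, 561 and 539.7 to 174, 238 and 262 (log2 fold change -1.35 ± 0.17, adjusted p = 0.00366) and was the only member of the bile acid list tested. Glutamine synthetase, Glul, which marks pericentral hepatocytes, stood at 583, 703 and 641 in FED and 113, 443 and 490.3 in FMD 1, 2 and 4 (adjusted p = 0.177). Of the glutathione and antioxidant genes, 27 in all, Gstm2 fell by 1.503 (adjusted p = 0.00162) and Prdx4 by 0.96, and Maff and Srxn1 rose, Srxn1 at 175, 56.5 and 43.7 in FMD 1, 2 and 4 against 18.6, 18.7 and 22.5 in FED. The calls of Prdx4 and Srxn1 were lost without FED 1 (adjusted p = 0.0626 and 0.131).

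**Figure D4:**
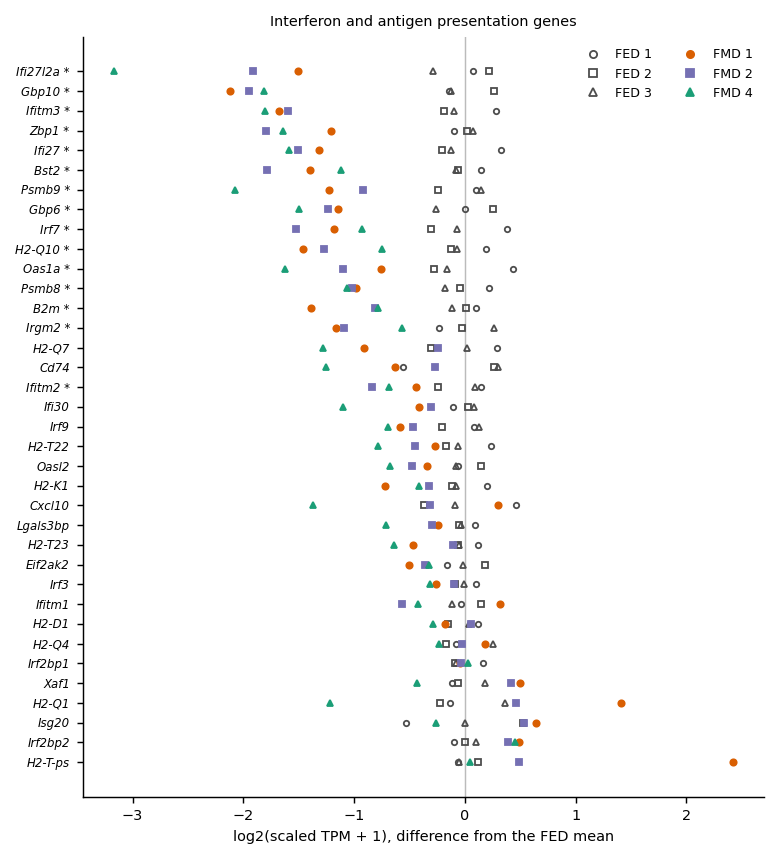
Difference of each library from the FED mean, on the log2(scaled TPM + 1) scale, for the 36 tested genes of the interferon and antigen presentation list, ordered by log2 fold change. Open grey symbols are FED livers, filled symbols FMD livers, and an asterisk marks a changed gene. At the 15 changed genes all 3 FMD livers lie left of all 3 FED livers. The diets overlapped at none of the 430 changed genes, and FMD lay lower without overlap at 18.1% of all genes tested.

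Of 36 interferon and antigen presentation genes tested, 15 fell, none rose and 21 did not pass, with a median log2 fold change of -0.60 (-0.10 without scaling, when 10 were called lower and 1 higher). The list also took in an H2 pseudogene and the Irf2bp genes, the latter by name only. Interferons signal through STAT and IRF factors to induce antiviral proteins and the machinery that loads peptides on class I molecules. Ifitm3, a membrane protein that blocks virus entry, was the most abundant antiviral member, at 1435, 1038 and 1103 in FED and 367, 390.1 and 338 in FMD (log2 fold change -1.69 ± 0.16, adjusted p = 0.00109). Bst2, or tetherin, which holds budding virus at the cell surface, went from 290.3, 251 and 248 to 99.2, 75.6 and 121 (log2 fold change -1.43, adjusted p = 0.00366). The guanylate-binding protein Gbp10 fell by 1.96 ± 0.15 and the nucleic acid sensor Zbp1 by 1.55 ± 0.16. Gbp10 was under 1 in each FMD liver, at 0.188, 0.341 and 0.477, and at 3.70, 5.22 and 3.75 in FED. Irf7, the factor that amplifies the interferon response, fell by 1.21 (adjusted p = 0.0121) and Oas1a, an RNA-activated synthetase, by 1.16 (adjusted p = 0.0272, and 0.106 without FED 1).

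In antigen presentation, β2-microglobulin, B2m, the light chain of class I molecules, stood at 2909, 2721 and 2501 in FED and 1034, 1541 and 1567 in FMD (log2 fold change -0.995, adjusted p = 0.0162, and 0.0794 without FED 1). The immunoproteasome subunits Psmb8 and Psmb9, which cut peptides for presentation, fell by 1.02 and 1.41 (adjusted p = 0.00354 and 0.0177), the latter lost without FED 1 (adjusted p = 0.09). H2-Q10, a secreted class I molecule of the liver, fell by 1.16 (adjusted p = 0.0131, and 0.0683 without FED 1). B2m and Psmb8 were not called without scaling. The classical heavy chains did not pass, with log2 fold changes of -0.49 for H2-K1 and -0.14 for H2-D1 (adjusted p = 0.0908 and 0.572), and class I heavy chains are similar enough that reads may be shared among them. The class II chaperone Cd74, made by antigen-presenting cells, was measured at 42.6, 76.5 and 78.1 in FED and 40.7, 52.5 and 26.1 in FMD (log2 fold change -0.72, adjusted p = 0.161). Mpeg1 of macrophages was called lower on scaled values, and without scaling its log2 difference was -1.02 in the limma fit (adjusted p = 0.0502). Cd68, the other Kupffer cell marker tested, stood at a log2 difference of 0.45 (adjusted p = 0.681). The part of cell composition in the falls of this list was not tested. Of the 15 that fell, 8 were called in all 6 fits with a library left out, and without FMD 1 the list held 16 lower calls.

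Promoter sequences are shown for 4 of the genes that fell, because interferon-stimulated response elements share a pair of GAAA blocks with any 2 bases between them, searched on both strands and marked in capitals with overlapping matches run together. The windows are those of RefSeq on GRCm38.p6, from 250 bases before to 50 after the start. That of Ifitm3 is chr7:141010695-141010994 on the minus strand, of Bst2 chr8:71537423-71537722 on the minus strand, of Oas1a chr5:120907476-120907775 on the minus strand and of B2m chr2:122147437-122147736 on the plus strand.
Ifitm3: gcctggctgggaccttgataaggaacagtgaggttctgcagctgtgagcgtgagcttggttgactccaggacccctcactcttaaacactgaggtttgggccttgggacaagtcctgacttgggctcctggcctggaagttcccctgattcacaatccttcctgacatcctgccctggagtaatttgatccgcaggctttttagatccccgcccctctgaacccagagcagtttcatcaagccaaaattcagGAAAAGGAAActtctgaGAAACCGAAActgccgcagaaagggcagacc
Bst2: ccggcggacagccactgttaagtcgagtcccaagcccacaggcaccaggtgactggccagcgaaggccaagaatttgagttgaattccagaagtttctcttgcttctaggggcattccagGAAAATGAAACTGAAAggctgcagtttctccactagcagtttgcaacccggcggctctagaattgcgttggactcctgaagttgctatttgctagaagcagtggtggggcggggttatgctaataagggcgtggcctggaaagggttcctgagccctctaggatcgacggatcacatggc
Oas1a: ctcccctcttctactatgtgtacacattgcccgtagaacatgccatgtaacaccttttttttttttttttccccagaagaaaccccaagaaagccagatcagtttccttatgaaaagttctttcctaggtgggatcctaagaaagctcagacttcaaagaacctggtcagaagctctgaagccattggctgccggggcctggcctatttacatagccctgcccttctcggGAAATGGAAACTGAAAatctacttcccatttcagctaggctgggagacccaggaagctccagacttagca
B2m: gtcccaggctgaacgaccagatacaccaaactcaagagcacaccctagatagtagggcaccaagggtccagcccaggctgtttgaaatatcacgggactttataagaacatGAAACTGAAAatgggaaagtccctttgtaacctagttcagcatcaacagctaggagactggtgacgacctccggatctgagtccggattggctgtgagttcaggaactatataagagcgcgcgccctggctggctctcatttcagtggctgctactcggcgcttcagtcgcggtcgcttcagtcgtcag

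The matches lie at bases 253 to 262 and 270 to 279 of the Ifitm3 window, 121 to 130 and 127 to 136 of Bst2, 231 to 240 and 237 to 246 of Oas1a and 112 to 121 of B2m. Of the 15 genes that fell, 10 had a window and 6 of these held a match (60%). Of the 21 members that did not pass, 19 had a window and 4 held a match (21.1%), while 139 of 3819 tested genes with a window did (3.64%), as did 3.44% of all windows. A match is a description of these letters and does not show binding.

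Of 50 genes of protein folding and secretion in the endoplasmic reticulum 6 fell and 2 rose, with a median of -0.21 that was 0.32 without scaling. Without scaling 15 were called higher and 1 lower, beside 34.3% and 1.56% of all genes. Sdf2l1, a partner of folding chaperones, went from 64.7, 40.9 and 64.7 in FED to 18.5, 7.497 and 15.3 in FMD (log2 fold change -2.02 ± 0.32, adjusted p = 0.00832, and 0.0527 without FED 1). The lectin chaperone calreticulin, Calr, stood at 944, 789 and 905 in FED and 485, 488 and 474 in FMD, with all 3 FMD livers alike (log2 fold change -0.86 ± 0.12, adjusted p = 0.0061), and the disulphide isomerase Pdia6 fell by 1.11, Ddost of the glycosylation complex by 0.72, the signal peptidase subunit Spcs3 by 0.65 and the stress sensor Ern1 by 0.63. The last 4 lost their calls in the weakest fit (adjusted p = 0.0759, 0.077 and 0.0947 without FED 1 and 0.0903 without FED 3), and without scaling Sdf2l1 alone was called lower. The 2 that rose, Sec23a by 0.85 and Sec24d by 0.68, form the coat of vesicles that leave the endoplasmic reticulum, and neither was called in all 6 fits (adjusted p = 0.0667 without FED 1 and 0.0891 without FED 3). In the cytosol, the chaperones Hspa8 and Hsp90ab1 rose by 1.02 and 0.60 among 19 heat shock genes (adjusted p = 0.0155 and 0.0281), and were called in 3 and 2 of the 6 fits (highest adjusted p = 0.0701 without FED 1 and 0.118 without FED 2). The changed share of the heat shock list was near the 9.21% of all genes tested.

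The FMD livers differed among themselves more than the FED livers did. The SD over the 3 libraries was larger in FMD than in FED for 74.2% of the genes, with a median SD of 0.185 against 0.105 on the log2(scaled TPM + 1) scale. The range over the 3 livers exceeded 1 on the log2 scale at 273 genes (5.85%) in FMD and at 44 (0.943%) in FED. The Euclidean distance over all 4667 genes was 24.4 to 33.4 between FMD livers, 13.1 to 18.6 between FED livers and 32.2 to 45.4 between a FED and an FMD liver. FMD 1 and FMD 4 were the farthest apart of the FMD livers, and FMD 1 was the farthest from every FED liver. The share of genes with the larger SD in FMD was 58.5% without FMD 1, 65.6% without FMD 2 and 62.5% without FMD 4. These shares compare an SD over fewer FMD than FED libraries, so they cannot be set directly against 74.2%. How much of the fall this accounts for was not tested. Of the 430 changed genes, 52 had an FMD range over 1.

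**Figure D5:**
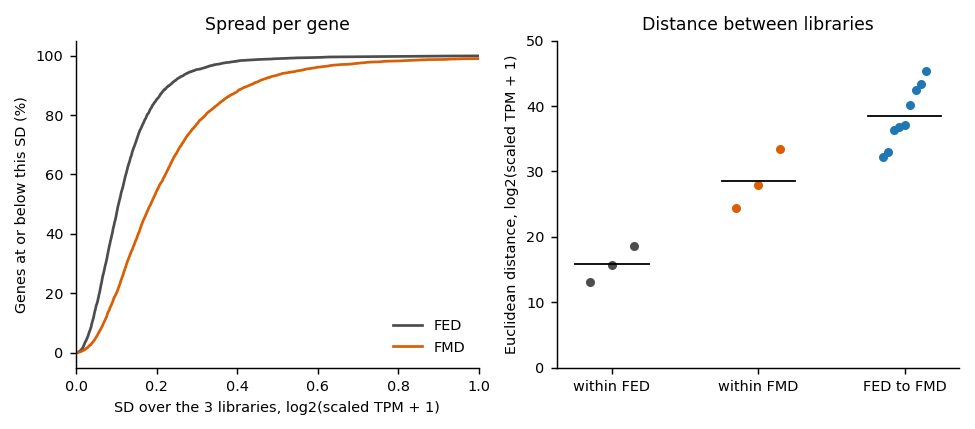
Spread among livers of the same diet. The left plot gives the percentage of the 4667 genes at or below each SD over the 3 libraries, and the right plot the Euclidean distance between pairs of libraries, with bars for means, all on the log2(scaled TPM + 1) scale. The FMD curve lies to the right of the FED curve, and the 3 distances within FMD all exceed the 3 within FED.

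FMD 1 stood over 2-fold above both other FMD livers at 64 genes and below both at 16, against 11 and 3 for FMD 2, 12 and 30 for FMD 4, and 2 or 3 above and 3 to 6 below for each FED liver. The genes raised in FMD 1 included stress genes. Ddit3, the stress factor CHOP, was measured at 84.4, 10.3 and 11.1 in FMD 1, 2 and 4 and at 12.6, 10.6 and 6.71 in FED, and Trib3, a pseudokinase of the same stress response, at 58.5, 15.1 and 13.9 in FMD and 7.98, 6.67 and 4.11 in FED. Neither passed the test (adjusted p = 0.348 and 0.0574). Anxa2, a membrane-binding annexin, had the widest FMD range after Mt2 and Cdkn1a among genes whose mean deposited TPM reached 10, at 109, 17.8 and 8.12 against 8.10, 10.3 and 10.6 in FED (log2 fold change 1.33, adjusted p = 0.293). The lysosomal and macrophage protein Cd68 was at 44.7, 10.6 and 5.27, the exosome and lysosome protein Cd63 at 79.7, 26.9 and 9.17 and the calcium-binding S100a11 at 127, 43.0 and 15.6 in FMD 1, 2 and 4. Of the 31 genes over 2-fold higher in FMD 1 than in both others whose mean deposited TPM reached 10, 9 passed the test in the 6 libraries, 7 as higher in FMD and 2, Orm2 and Fabp5, as lower. Of all genes tested 9.21% passed, 4.33% as higher and 4.89% as lower. The 31 genes were chosen by their values in FMD 1, which also enter the test, so their number of calls is no independent result. Without FMD 1, Mt2 and Cdkn1a kept log2 fold changes of 2.91 (adjusted p = 0.034) and 2.61 (adjusted p = 0.0251), and Anxa2 was at 0.30 (adjusted p = 0.516). FMD 1 also had the largest scaling factor, 1.43, and the largest listed share of TPM, 43.0%, and the part of these in its distance was not tested.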

How the data were processed

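Liver RNA of 9 mice was sequenced by the authors on a DNBSEQ platform after oligo-dT selection and strand-specific library preparation, 1 library per mouse, and the values deposited are TPM per gene, normalised for transcript length and library. The submitters' processing notes name DESeq2 and the mm39 build, and the aligner, the gene annotation and the treatment of reads shared by related genes are not given in the sources used here. Part of the transcriptome is in the table used, and a change in the listed share of TPM cannot be told apart from a general change, so the scaling below sets the centre of all differences. TPM keeps no depth, so the sequencing depth of each library is unknown and no counting error could be given.

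Samples were grouped from the labels into FED, FMD and IF, with 3 mice each. For FED and FMD, genes averaging at least 1 TPM over the 6 libraries were kept, each library was scaled by its median gene-wise ratio to a geometric mean library, and log2(scaled TPM + 1) was fitted with limma 3.58.1 in R 4.3.3 (lmFit, eBayes with trend) with Benjamini-Hochberg adjustment. Fold changes on this scale understate the change of low genes. Genes were called at an adjusted p under 0.05 and a fold over 1.5, after the limits of the study's methods. Tables and plots were made in Python 3.11.15 (matplotlib 3.10.9, pandas 2.3.3, numpy 2.4.6). The fit was also run on simulated data with known changes, but the outcome is not reported here and nothing is concluded from it. Whether the fit recovers changes when the SD is larger in FMD than in FED was not tested. The members, gene lists, motifs and tests were chosen with earlier results of these data known, so the lists are descriptions and no set test was run.

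Genes were named if among the 10 largest rises or falls averaging at least 5 TPM, among the 3 called members of smallest adjusted p in a list, part of the study's qPCR panels or text, among the 5 with the widest FMD range or among the 3 of highest level. Other members of the lists, and genes high in FMD 1, were named after their values were seen. Some members counted in the lists are not reported here by name. Alternatives were no scaling, quantile normalization, scaling from abundant genes, pseudocounts of 0.1 and 5, filters on low values, other limits, all 9 libraries, library weights, eBayes without trend or robust, a replicate block and each library left out. Settings without scaling and an FMD library, and the lists without scaling or without FMD 1, were added after seeing the data. Promoter windows were matched by gene for 3819 of the 4667 genes tested and are on GRCm38.p6, another build than that of the deposited values, so no coordinates were joined.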

Additional observations from a re-analysis of the deposited data

Results flagged for a closer look

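At 21 named genes the FMD and IF livers differed in the direct test, the FMD minus IF contrast of a limma fit over all 9 libraries scaled together, at an adjusted p under 0.05 and a fold over 1.5. Over all genes 104 of 4665 tested (2.23%) met both limits. The differences of FMD from FED and of IF from FED share the FED libraries, so they are given only side by side.

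Scd1 stood apart the most. Its log2 difference between FMD and IF was -5.92 ± 0.28 (SE, adjusted p = 7.02e-06), beside -5.98 for FMD and -0.063 for IF relative to FED, and it was measured at 1514, 2347 and 1562 in IF 1, 2 and 3. Maff, Rgs16 and the splicing regulator Tra2a were called higher in FMD than in IF. The FMD minus IF differences were 3.35 (adjusted p = 1.94e-05), 2.85 (adjusted p = 0.00399) and 1.42 (adjusted p = 0.00882), and the differences from FED were 2.33, 2.46 and 0.74 for FMD and -1.02, -0.40 and -0.67 for IF. The IF difference from FED had an adjusted p of 0.00804 for Maff, 0.475 for Rgs16, whose IF livers at 1.89, 4.25 and 1.83 overlapped those of FED, and 0.046 for Tra2a, which was 0.187 without scaling.

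Higher in FMD than in IF were also Acot2 by 1.54, Gadd45b by 1.42, the translation kinase Mknk2 by 1.09, Aldoa by 0.997, Cebpb by 0.86 and Slc25a33 by 0.80. Acot2 and Gadd45b were above FED on both diets, by 4.36 and 3.23 in FMD and by 2.82 and 1.81 in IF.

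Lower in FMD than in IF were 11 genes, with log2 differences of -1.59 for Apol9a, -1.24 for Orm1, -1.03 for Gstm2, -0.98 for Sult5a1, -0.88 for Cela1, -0.88 for C4b, -0.82 for Apoc1, -0.80 for Hsd3b7, -0.73 for Hibadh, -0.73 for Masp1 and -0.69 for the metalloreductase gene Steap3. Some were also lower in IF than in FED in the same limma fit. These were Cela1 by -2.16 (adjusted p = 7.81e-06), Sult5a1 by -1.27 (0.00569), Orm1 by -1.23 (0.00208), Apol9a by -1.02 (0.0075) and Hsd3b7 by -0.55 (0.037, and 0.0974 without scaling). For the others the IF difference from FED had an adjusted p of at least 0.14. Without scaling the adjusted p was 0.0549 for Steap3 and 0.053 for Gstm2, and the differences of Masp1, Steap3, Hsd3b7, Apoc1 and Hibadh were -0.46, -0.44, -0.53, -0.54 and -0.46, under the fold limit.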

How the results depend on the processing

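Scaling moved the counts most. Without it 1674 genes were called, 1601 higher and 73 lower, and leaving out FMD 1, 2 or 4 as well, settings chosen after seeing the data, gave 1151, 1801 and 2130 calls, of which 1064, 1733 and 2056 were higher and 87, 68 and 74 lower. A pseudocount of 5 gave 286 calls, 131 of them higher. An adjusted p under 0.01 left 156 (74 higher, 82 lower), and a fold over 2 left 181 (95 higher, 86 lower). Leaving out 1 library gave 173 to 569 calls, 81 to 265 higher and 90 to 304 lower, and FED 1, FED 2 and FED 3 were the libraries whose absence moved the count by over 1.5 times. All other settings stayed within 1.5 times of 430, including quantile normalization (418), no filter on low values (383), 9 libraries in the fit (519) and library weights (517). The share of genes with the larger SD in FMD lay between 58.5% and 83.8% with a library left out and was 84.1% without scaling. With a library left out, the SDs compared rest on unequal numbers of libraries.

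FED 1 with FMD 1 and FED 2 with FMD 2 share a number but come from different mice. The correlations of their deviations from the group means were 0.0859 and -0.00734, while pairs of unlike number spanned -0.134 to 0.153. Whether a batch is shared under these numbers was not tested. A fit with the replicate block called 330 genes, 166 higher and 164 lower.

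Over the 111 named genes and all settings, the direction turned at 5 genes, of which Tuba4a alone had been called. Tuba4a stood at 0.072 without scaling and FMD 2. Tigar stood at -0.024 with the replicate block, -0.0091 without FED 1 and -0.055 without FMD 4, and Bax at -0.23 without FMD 1. Mcl1 stood at 0.37 without scaling and at 0.17, 0.41 and 0.52 when FMD 1, 2 or 4 was left out too. Apoe stood at 0.52 without scaling, at 0.021 with library weights, between -0.16 and 0.15 with a library left out (0.15 without FMD 1) and at 0.58, 0.49 and 0.47 without scaling and FMD 1, 2 or 4. The cause of these turns was not tested. TPM values keep no depth, so the counting error of low genes is unknown.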

Other observations

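Transport and signalling genes outside the groups above moved singly. Over all genes tested 9.21% changed (4.33% rose, 4.89% fell), and no list in this paragraph had a larger share of changed genes. Of 70 vesicle traffic genes 3 rose, Rab30, the GTPase Rab34 from 4.09, 3.97 and 5.21 to 9.37, 9.86 and 8.69 (log2 fold change 0.93 ± 0.12, adjusted p = 0.00403) and the SNARE Sec22c by 0.73. Of 52 MAP kinase and phosphatase genes 4 rose and none fell. The phosphatase subunit Ppp2r2d stood at 13.8, 16.6 and 16.6 in FED and 37.4, 40.8 and 34.1 in FMD (log2 fold change 1.20 ± 0.12, adjusted p = 0.00141), Mknk2 at 53.04, 27.5 and 40.2 in FED and 114, 138 and 85.7 in FMD (log2 fold change 1.48), and the stress kinase Map3k5 rose by 1.21. Ppp2r2d and Mknk2 were called in all 6 fits with a library left out, and Sec22c and Map3k5 were not called without FED 1 (adjusted p = 0.0537 and 0.0586). Among 73 splicing and RNA processing genes, the cold-inducible Rbm3 went from 50.2, 36.4 and 43.0 to 126, 102 and 82.1 (log2 fold change 1.23 ± 0.18, adjusted p = 0.0068) and Tra2a rose by 0.74 (adjusted p = 0.016, and 0.0809 without FED 1).

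Of 40 autophagy and lysosome genes 3 rose and 1 fell. Of all genes tested 9.21% changed, and the changed shares of the autophagy, proteasome and matrix lists were near that. The mitophagy receptor Bnip3 stood at 88.6, 117 and 116 in FED and 184, 344 and 286 in FMD (log2 fold change 1.29 ± 0.24, adjusted p = 0.0136), the cargo receptor Sqstm1 rose by 0.66 and the lysosomal cholesterol transporter Npc1 by 0.84, and the initiating kinase Ulk2 fell from 19.4, 24.0 and 19.2 to 6.90, 11.3 and 11.8 (log2 fold change -1.02, adjusted p = 0.0161). None of the 4 was called in all 6 fits, with the highest adjusted p at 0.0722 for Bnip3 and 0.0683 for Ulk2 without FED 1 and 0.129 for Npc1 and 0.156 for Sqstm1 without FED 3. Ulk2 was not called without scaling. Of 67 proteasome and ubiquitin genes 4 fell and 2 rose, against 1 called lower and 30 higher without scaling. Without scaling 34.3% of all genes were called higher and 1.56% lower, the background of each unscaled count in this paragraph. The proteasome activator Psme2 and the interferon-inducible conjugating enzyme Ube2l6 fell by 0.67 and 0.73 beside Psmb8 and Psmb9, although neither Psme2 nor Ube2l6 was called without scaling, and the ubiquitin gene Ubb and the deubiquitinase Usp36 rose by 0.70 and 0.61. The weakest fit ended each of these 4 calls, without FED 3 for Ubb (adjusted p = 0.0804) and without FED 1 for the others (0.0709 for Psme2, 0.0981 for Ube2l6 and 0.0653 for Usp36). The metalloproteinases Mmp15 and Mmp19 fell by 1.06 and 0.68 among 20 matrix and integrin genes, and were not called without FED 1 (adjusted p = 0.128 and 0.132), nor without scaling, when 4 of the 20 were called higher and none lower. Of 54 cytoskeleton genes 2 rose, Actg1 by 1.17 and the kinesin Kif21a by 0.78, and Tuba4a fell by 0.62, none of them called in all 6 fits (highest adjusted p = 0.118, 0.0692 and 0.161). Without scaling 15 of the 54 were called higher and none lower, beside 34.3% and 1.56% of all genes, and Tuba4a stood at -0.076 (adjusted p = 0.715). In the limma fit none of 24 DNA replication or 52 chromatin modifier genes was called, and 7 and 9 had an unadjusted p under 0.05. Of 18 genes of metal handling and selenium, Mt2 rose and Selenbp2 and Steap3 fell, the last by 0.81 (adjusted p = 0.00403), and Steap3 was not called without scaling.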
